A study of Mus musculus with 18 samples.

Results

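A classical MHC class I molecule is a heavy chain paired with a light chain, and the genes described here are B2m, which encodes the light chain beta-2 microglobulin, and H2-K1 and H2-D1, which encode the heavy chains H-2K and H-2D. They were picked by symbol, and all 3 were found among the 55487 gene entries of the series. RNA was measured in 18 libraries from islets of C57BL/6 mice (per the study's methods, adult C57BL/6JRj males), and the labels name no genetic change. Isolated whole islets were cultured for 20 h with 5 ng/mL IFNγ or without it, then dissociated and sorted, so that the 6 groups of 3 libraries were delta IFNγ and delta control (CD24-high cells), beta IFNγ and beta control (CD24-low, CD71-positive) and alpha IFNγ and alpha control (CD24-low, CD71-negative), all from Epcam-positive cells without CD45, TER119 or CD31. Control islets received no cytokine.

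IFNγ is the cytokine of activated T cells and natural killer cells. Its signal induces the transcription factor IRF1 and the class I transactivator NLRC5, and these act at the promoters of class I genes. Peptides cut by the proteasome are pumped into the endoplasmic reticulum by TAP and loaded on a heavy chain that has already bound beta-2 microglobulin. Without the light chain, heavy chains for the most part do not fold stably or reach the cell surface. There class I is read by CD8 T cells, the cells that attack beta cells in autoimmune diabetes.

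In GRCm38, B2m (ENSMUSG00000060802) lies on chromosome 2, 122147686 to 122153083, on the forward strand. H2-K1 (ENSMUSG00000061232) lies on the reverse strand of chromosome 17, 33996017 to 34000347. H2-D1 (ENSMUSG00000073411) lies on the forward strand of the same chromosome, 35262730 to 35267499, in the MHC. The heavy chain genes resemble each other: their longest coding transcripts were identical at 90.5% of 1585 aligned bases. Of all 75-base stretches in annotated transcripts, 116 of 3737 (3.10%) in H2-K1 and 140 of 2591 (5.40%) in H2-D1 also occurred in another gene, against 0 of 786 in B2m. Only 24 of these stretches were shared between H2-K1 and H2-D1 themselves, the rest being shared with other genes. Some reads of each heavy chain are therefore uncertain. The stretches were pooled over 16 annotated transcripts of H2-K1 and 4 of H2-D1, so they do not give the share of such reads. B2m was overlapped by Patl2 on the opposite strand, which held 5 expected counts in all 18 libraries together.

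The bases before the start of each gene are shown because NLRC5, IRF1 and NF-kB are known to act at class I promoters. Each is the 250 bases upstream of the annotated start (RefSeq, GRCm38.p6), read 5′ to 3′ along the gene's strand: chr2:122147437-122147686 (+) for B2m, chr17:34000348-34000597 (−) for H2-K1, the first of its 2 windows there, and chr17:35262844-35263093 (+) for H2-D1. RefSeq starts H2-D1 downstream of the gene start given above, so that the H2-D1 window lies within that gene span and its positions are counted from the RefSeq start. Capitals mark matches to the motifs searched on both strands. These were the interferon-stimulated response element core (GAAA and GAAA with 2 bases between them), a palindromic NF-kB site of 11 bases (the first capitals of H2-K1 and of H2-D1), the CRE core TGACG and the Y box CCAAT, which reads ATTGG where it lies on the reverse strand. A shorter interferon element (GAA and GAAAC with 2 bases between them) was added after the sequences had been seen and can overlap the response element core.
B2m: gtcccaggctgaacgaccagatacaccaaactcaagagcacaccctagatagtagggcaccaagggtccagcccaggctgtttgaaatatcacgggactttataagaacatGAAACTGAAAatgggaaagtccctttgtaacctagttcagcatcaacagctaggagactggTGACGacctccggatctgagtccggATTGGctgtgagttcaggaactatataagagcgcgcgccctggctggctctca
H2-K1: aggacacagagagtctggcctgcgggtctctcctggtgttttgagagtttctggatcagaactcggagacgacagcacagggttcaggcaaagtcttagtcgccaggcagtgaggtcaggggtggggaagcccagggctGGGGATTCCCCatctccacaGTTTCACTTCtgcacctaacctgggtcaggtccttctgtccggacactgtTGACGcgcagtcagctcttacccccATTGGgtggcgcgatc
H2-D1: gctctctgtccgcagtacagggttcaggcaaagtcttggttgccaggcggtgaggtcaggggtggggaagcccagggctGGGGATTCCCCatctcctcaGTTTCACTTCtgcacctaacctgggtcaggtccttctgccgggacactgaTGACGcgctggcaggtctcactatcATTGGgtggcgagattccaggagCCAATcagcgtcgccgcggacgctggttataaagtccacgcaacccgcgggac

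The B2m promoter held the response element core from base -139 to base -130, counted from the start. This motif was present in 2.98% of 32851 promoter windows of the same length. The H2-K1 and H2-D1 promoters held no match to it. They held the shorter interferon element on the reverse strand, at -91 to -82 in H2-K1 and at -151 to -142 in H2-D1, which 1.45% of windows had. Just upstream of it both held the NF-kB site, at -111 to -101 in H2-K1 and at -171 to -161 in H2-D1, which was found in 10 windows (0.0304%) and not in the B2m window. The CRE core and the reversed Y box followed in the same order in all 3 promoters, and they were common motifs, in 17.8% and 33.8% of windows. No window of the 3 genes matched the full CRE TGACGTCA, which 1.55% of windows held. The H2-K1 and H2-D1 windows were identical at 89.5% of 190 aligned bases, with an unbroken shared run of 47 bases, while B2m was identical to H2-K1 at 59.8% of 214 aligned bases. A match of letters is a description of the sequence and was not tested as a binding site.

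**Figure D1:**
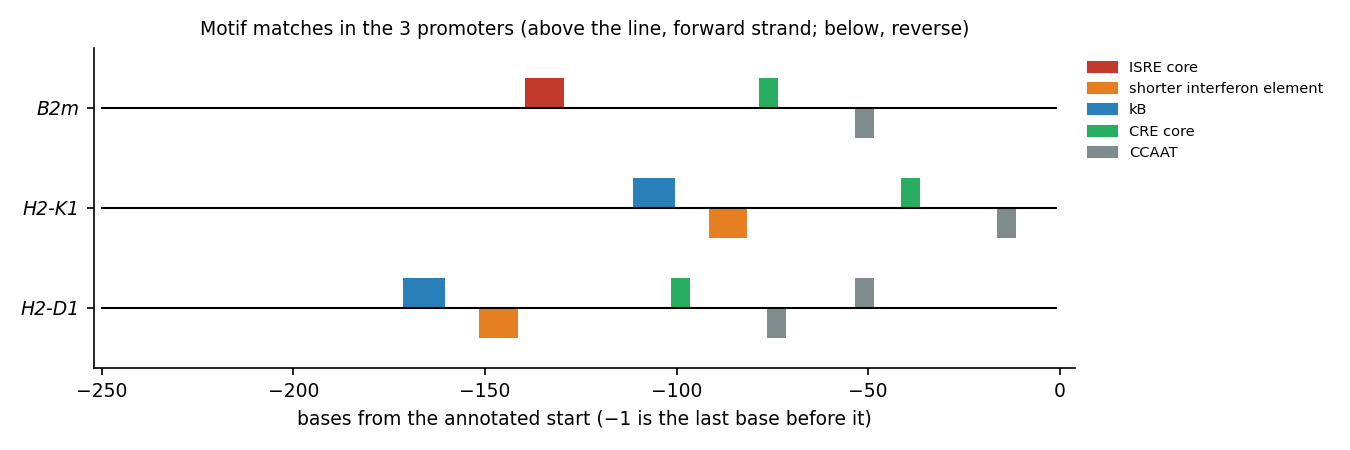
Motif matches along the 250 bases before the annotated start of each gene, with the distance from the start in bases on the x axis. Boxes above a line are forward-strand matches and boxes below it reverse-strand matches. The NF-kB site and the shorter interferon element stand next to each other in H2-K1 and H2-D1, and the response element core stands in B2m.

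Library totals were between 6128845 and 11531734 expected counts (RSEM estimates of fragments per gene), with a median of 8697388. The hormone genes followed the labels: Gcg was 74633 to 117436 CPM in alpha libraries and at most 2977 CPM in the others, Ins2 was 17515 to 30178 CPM in beta libraries and at most 6503 CPM in the others, and Sst was 9561 to 35919 CPM in delta libraries and at most 74.1 CPM in the others. The 13 immune cell markers summed to 1.29 to 6.22 CPM in every library, with the pan-leukocyte gene Ptprc at 0 to 0.418 CPM, and the 8 endothelial markers to 2.22 to 10.6 CPM. Acinar markers summed to 491 to 1721 CPM in delta IFNγ and 1176 to 2538 CPM in delta control libraries, at most 44.3 CPM in alpha libraries, and reached 2065 CPM in 1 beta control library. Their part in the results was not tested. In such bulk samples, fewer cells of a type and less RNA per cell cannot be told apart. The file names carried 9 dates, and delta cells were never represented by both treatments on 1 date, so that date and treatment cannot be told apart in them. The file name of beta control 3 names an enzyme where those of the other beta libraries name a sort marker, and the reason was not found.

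Without IFNγ, light chain RNA was scarce next to heavy chain RNA in all 3 cell types. Levels between genes are compared as TPM, which scales each gene by its length and each library to a common total. B2m was 21.7, 16.04 and 31.1 TPM in delta control libraries, 20.0, 28.3 and 44.8 TPM in beta control and 20.1, 19.4 and 26.0 TPM in alpha control. H2-K1 was 110, 166 and 70.0 TPM in delta control, 130, 175 and 110 TPM in beta control and 134, 153 and 214 TPM in alpha control. H2-D1 was 29.9, 40.5 and 22.6 TPM in delta control, 41.9, 40.1 and 25.6 TPM in beta control and 38.1, 44.1 and 55.5 TPM in alpha control. H2-K1 was above B2m in 9 of 9 control libraries. B2m was below H2-D1 in all of them but delta control 3 and beta control 3. By its mean TPM H2-K1 ranked 254th, 243rd and 237th among 17338 genes tested in delta, beta and alpha control cells, while B2m ranked 1443rd, 1163rd and 1914th.

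The control levels of the 3 genes were not shown to differ between cell types. To follow 1 gene across groups, counts were scaled between libraries and given as CPM. B2m averaged 31.3 ± 12.1 CPM in delta, 42.3 ± 15.9 in beta and 25.5 ± 0.716 in alpha control cells (SD, n = 3 each). H2-K1 averaged 186 ± 44.9 CPM in delta, 235 ± 29.8 in beta and 209 ± 30.5 in alpha control cells. H2-D1 averaged 114 ± 25.9 CPM in delta, 131 ± 36.6 in beta and 140 ± 11.6 in alpha control cells. The widest difference was that of B2m in beta against alpha cells, a log2 fold change of 0.73 (95% interval -0.03 to 1.49, adjusted p = 0.178). None of the 9 contrasts of a gene between control cell types passed an adjusted p of 0.05 in edgeR's quasi-likelihood test, with adjusted p from 0.178 to 0.838. Over all genes tested, 20.5% passed for delta against beta, 19.7% for delta against alpha and 19.7% for beta against alpha. With no low-count filter the B2m contrast of beta against alpha passed (0.75, adjusted p = 0.0293, edgeR), at an SE of 0.25 against 0.36 in the main test.

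With IFNγ, B2m was among the most abundant RNAs of all 3 cell types. It was 2325, 1891 and 2426 CPM in delta IFNγ libraries, against 31.3, 19.2 and 43.5 CPM in delta control libraries. It was 976, 1714 and 1026 CPM in beta IFNγ, against 31.2, 35.2 and 60.6 CPM in beta control. It was 2679, 992 and 1345 CPM in alpha IFNγ, against 25.6, 24.8 and 26.2 CPM in alpha control. The lowest IFNγ library thus lay far above the highest control library in each cell type, and alpha IFNγ 1 stood well above its replicates. By mean TPM, B2m ranked 55th, 84th and 79th in delta, beta and alpha IFNγ cells.

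B2m rose by a log2 fold change of 6.14 in delta cells (SE 0.44, 70.6-fold, adjusted p = 2.11e-08, edgeR's quasi-likelihood test). It rose by 4.87 in beta cells (SE 0.41, 29.3-fold, adjusted p = 2.29e-07). It rose by 6.03 in alpha cells (SE 0.44, 65.5-fold, adjusted p = 3.30e-08). Among all genes tested this was the 48th, 69th and 45th largest fold change in delta, beta and alpha cells. With date as a fixed term the delta value was 4.71, but it then rested on 1 IFNγ and 1 control library (delta IFNγ 1 and delta control 3), since the other delta libraries were alone on their dates.

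The heavy chains started from a higher base and rose by less. H2-K1 was 970, 1259 and 1006 CPM in delta IFNγ libraries, against 202, 220 and 135 CPM in delta control. It was 1404, 1314 and 1396 CPM in beta IFNγ, against 250, 255 and 201 CPM in beta control. It was 630, 999 and 544 CPM in alpha IFNγ, against 182, 202 and 242 CPM in alpha control. The treated beta libraries lay close together, whereas alpha IFNγ 2 stood above the other treated alpha libraries. No treated library of a cell type overlapped its controls.

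The log2 fold change of H2-K1 was 2.54 in delta cells (SE 0.25, 5.80-fold, adjusted p = 1.52e-06). It was 2.54 in beta cells (SE 0.25, 5.83-fold, adjusted p = 1.52e-06). It was 1.80 in alpha cells (SE 0.24, 3.47-fold, adjusted p = 0.000141). These are the same edgeR test as for B2m. By mean TPM, H2-K1 ranked 90th, 90th and 110th in delta, beta and alpha IFNγ cells.

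H2-D1 followed H2-K1 at a lower level. It was 535, 678 and 610 CPM in delta IFNγ libraries, against 121, 136 and 85.5 CPM in delta control. It was 830, 673 and 729 CPM in beta IFNγ, against 167, 132 and 93.4 CPM in beta control. It was 375, 713 and 326 CPM in alpha IFNγ, against 127, 145 and 149 CPM in alpha control. Alpha IFNγ 2 was again the highest of the treated alpha libraries, and treated and control libraries did not overlap in any cell type.

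The log2 fold change of H2-D1 was 2.41 in delta cells (SE 0.28, 5.32-fold, adjusted p = 1.85e-05). It was 2.51 in beta cells (SE 0.28, 5.69-fold, adjusted p = 1.18e-05). It was 1.75 in alpha cells (SE 0.28, 3.36-fold, adjusted p = 0.000978). With the counts of both heavy chains summed, so that reads shared between these 2 genes no longer matter, the log2 fold change was 2.49 in delta, 2.53 in beta and 1.78 in alpha cells. All 3 genes were thus called higher in each cell type by edgeR, where 1.21% of all genes tested were called higher in delta, 1.06% in beta and 0.94% in alpha cells. The alpha share stands for 163 genes, which became 1798 without alpha IFNγ 2. All 3 also had every IFNγ library above every control library, which held for 7.71% of genes in delta, 6.49% in beta and 9.62% in alpha cells. Pairs of an IFNγ and a control library of the same date gave B2m log2 differences of 4.96 and 5.60 in beta cells and 5.27 and 5.75 in alpha cells. The same pairs gave 2.49 and 2.37 for H2-K1 in beta cells and 2.46 and 1.43 in alpha cells. They gave 2.32 and 2.35 for H2-D1 in beta cells and 2.48 and 1.17 in alpha cells.

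**Figure D2:**
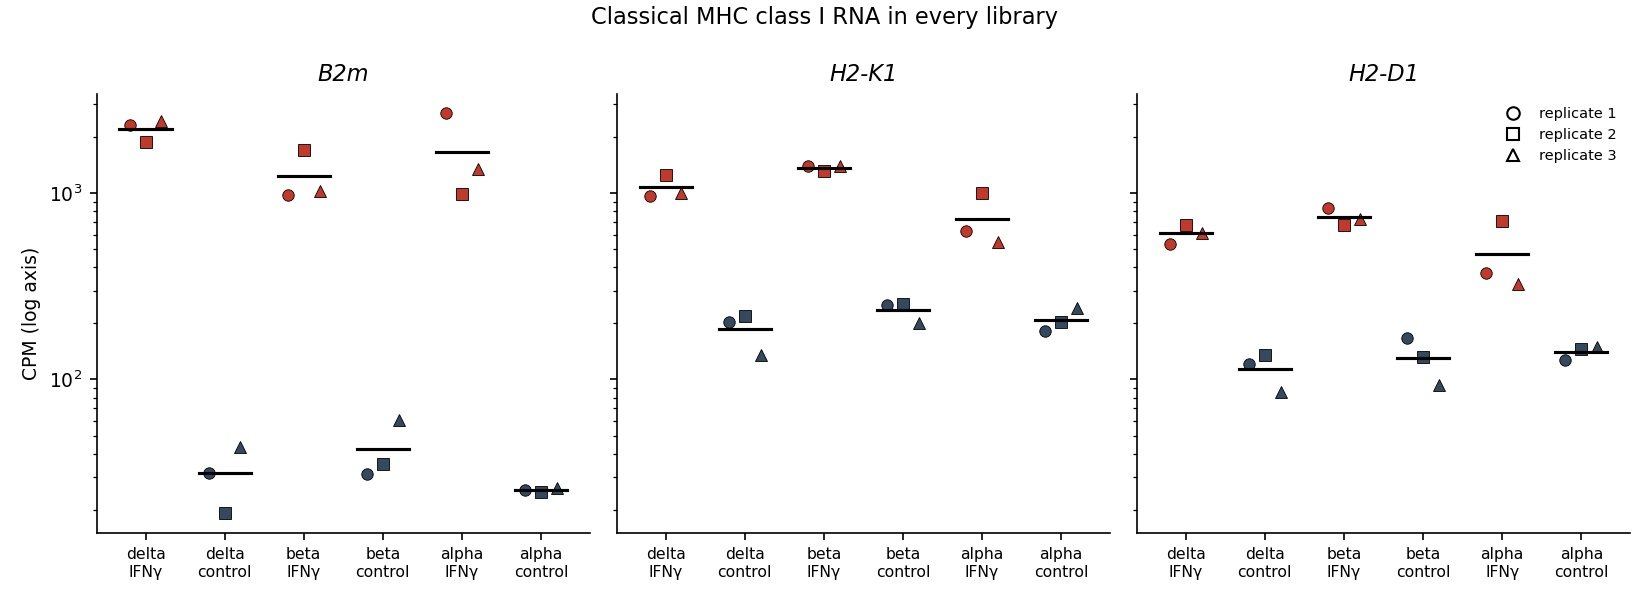
CPM of B2m, H2-K1 and H2-D1 in each of the 18 libraries on a log axis, with the IFNγ group left of its control for each cell type, points for libraries and bars for group means. B2m was 976 CPM or more with IFNγ, against 19.2 to 60.6 CPM in controls, while H2-K1 and H2-D1 started higher and moved less.

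Whether the 3 cell types differed in their response was tested as a difference of responses, and no contrast of the 3 genes passed after adjustment over all genes. The response of B2m differed between delta and beta cells by 1.27 on the log2 scale (95% interval 0.21 to 2.32, adjusted p = 0.884, edgeR). It differed between beta and alpha cells by -1.16 (interval -2.22 to -0.10, adjusted p = 0.370) and between delta and alpha cells by 0.11 (interval -0.95 to 1.16, adjusted p = 0.977). For the heavy chains the fold change was lowest in alpha cells. The difference between beta and alpha responses was 0.75 for H2-K1 (interval 0.05 to 1.44, adjusted p = 0.370) and 0.76 for H2-D1 (interval -0.03 to 1.56, adjusted p = 0.383). Between delta and alpha cells it was 0.74 for H2-K1 (interval 0.04 to 1.44, adjusted p = 0.876) and 0.67 for H2-D1 (interval -0.13 to 1.46, adjusted p = 0.876). Delta and beta cells differed by -0.01 for H2-K1 (interval -0.70 to 0.69) and by -0.10 for H2-D1 (interval -0.89 to 0.70). In these contrasts 0% of all genes passed, with 822 genes at an unadjusted p under 0.05 for delta minus beta, 783 for delta minus alpha and 2305 for beta minus alpha.

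One library weighed on the heavy chain contrasts. Without alpha IFNγ 2, the difference between beta and alpha responses was 1.05 for H2-K1 (adjusted p = 0.0442) and 1.19 for H2-D1 (adjusted p = 0.0381, edgeR). With all libraries and offsets for GC content, the same difference was 0.24 for H2-K1 and 0.53 for H2-D1. With date as a fixed term it was 0.45 and 0.49, and neither gene passed in either fit. With no low-count filter, B2m passed for beta minus alpha (-1.21, adjusted p = 0.0394) and for delta minus beta (1.30, adjusted p = 0.0479, edgeR). The SE of either difference was 0.35 in that fit, against 0.50 in the main test. The beta minus alpha value of B2m was -0.37 with GC offsets and -0.20 with date as a fixed term. Leaving out 1 library it was -1.47 to -0.65, and it passed in none of these fits. With date as a fixed term the delta minus beta value of B2m was -0.53, with 1 delta library left per treatment.

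**Figure D3:**
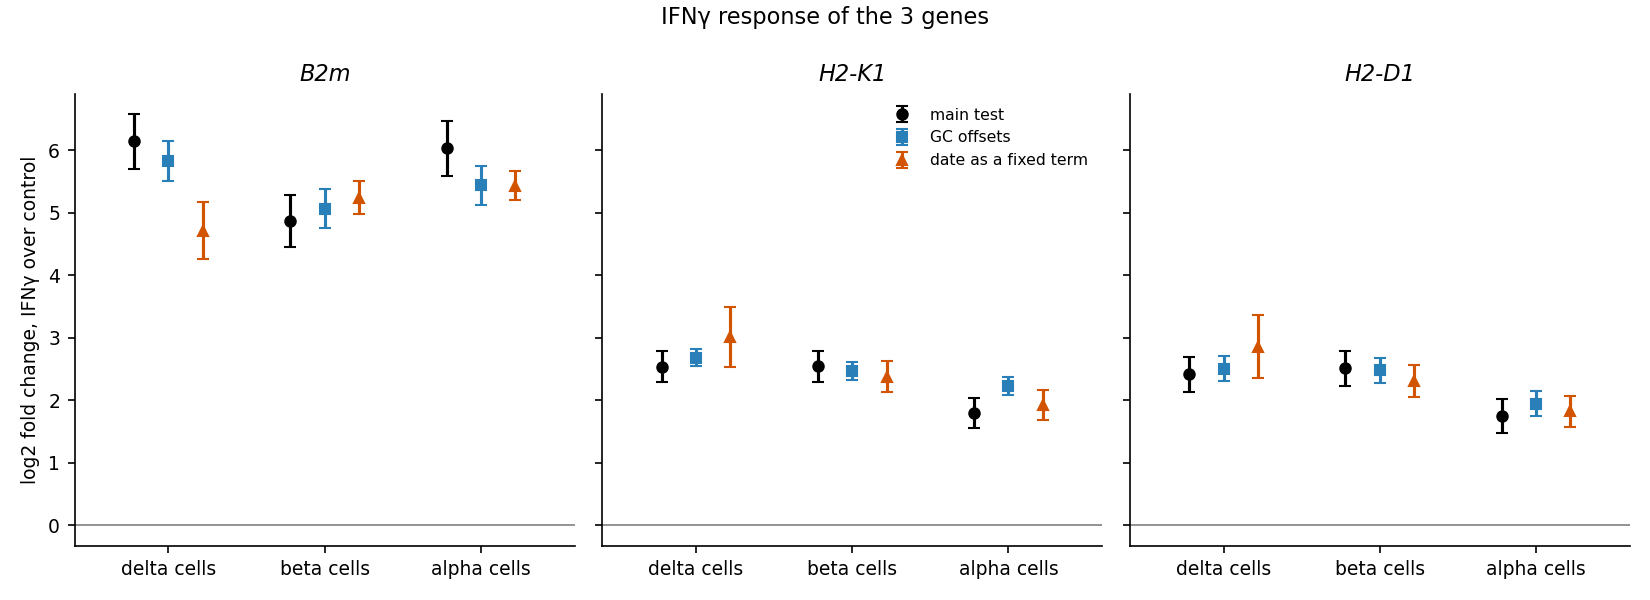
Log2 fold change of IFNγ over control for each gene and cell type, with the standard error as bars, in the edgeR test (black), with offsets for GC content (blue) and with date as a fixed term (orange, where delta rests on 1 library per treatment). Of the 3 genes B2m rose most, at 6.14, 4.87 and 6.03 in delta, beta and alpha cells, and the spread between cell types narrowed with GC offsets to 5.83, 5.07 and 5.44.

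The levels were also compared between the IFNγ-treated cell types. B2m averaged 2214 ± 284 CPM in delta, 1239 ± 413 in beta and 1672 ± 890 in alpha cells (SD, n = 3 each). H2-K1 averaged 1078 ± 157 CPM in delta, 1371 ± 49.6 in beta and 725 ± 242 in alpha cells. H2-D1 averaged 608 ± 71.4 CPM in delta, 744 ± 79.6 in beta and 471 ± 210 in alpha cells. Only H2-K1 in beta against alpha cells passed the test, at a log2 fold change of 0.92 (SE 0.24, adjusted p = 0.00739, edgeR). That was 1 of 9 contrasts, where 36.4% of all genes passed for delta against beta, 16% for delta against alpha and 27.1% for beta against alpha. B2m in delta against beta cells (0.84, adjusted p = 0.0700) and H2-D1 in beta against alpha cells (0.66, adjusted p = 0.0760) did not pass. With GC offsets H2-K1 in beta against alpha cells was 0.58, and the order of mean levels was not kept for B2m in beta against alpha cells (0.17) or for H2-K1 in delta against beta cells (0.050). Beta and alpha cells were the highest and the lowest for H2-K1, so that no neighbours in the order of levels were shown to differ for any of the 3 genes.

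The ratio of light to heavy chain RNA, B2m TPM over the sum of H2-K1 and H2-D1 TPM within a library, rose with IFNγ. It was 2.33, 1.43 and 2.37 in delta IFNγ libraries, against 0.156, 0.0776 and 0.336 in delta control. It was 0.581, 1.17 and 0.752 in beta IFNγ, against 0.116, 0.132 and 0.331 in beta control. It was 4.12, 0.824 and 2.33 in alpha IFNγ, against 0.117, 0.0987 and 0.0964 in alpha control. No treated library overlapped a control library of any cell type. B2m exceeded the 2 heavy chains together in 6 of 9 IFNγ libraries, not in beta IFNγ 1, beta IFNγ 3 or alpha IFNγ 2, and in 0 of 9 control libraries. That count depends on the quantity compared. With counts adjusted for GC it was 8 of 9 IFNγ libraries, and with the other listed heavy chains added to the denominator it was 5 of 9. The GC adjustment evens out differences between libraries only, so a GC effect common to all of them stays in the ratio.

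Over the 3 cell types together the ratio was 10.4-fold higher with IFNγ, a mean log2 difference of 3.38. A two-sided exact permutation test of treatment within cell types gave p = 0.00025, the smallest it can give. This test, used below as well, takes the libraries as independent, although libraries of different cell types shared dates. It also cannot separate date from treatment in delta cells. By cell type the log2 difference was 3.64 in delta cells (12.5-fold), with an SD of the log2 ratio of 0.41 with IFNγ and 1.06 in controls. It was 2.22 in beta cells (4.66-fold, SD 0.51 with IFNγ and 0.83 in controls) and 4.27 in alpha cells (19.3-fold, SD 1.18 with IFNγ and 0.15 in controls). Leaving out 1 library, the alpha value was 3.74 to 4.90, the highest without alpha IFNγ 2. Within a cell type, 3 libraries against 3 gave an exact permutation p of 0.1, the smallest this design allows. Pairs of the same date gave log2 differences of 2.32 and 3.16 in beta cells and 2.82 and 4.56 in alpha cells. The control ratio differed by -0.11 on the log2 scale between delta and beta cells, by 0.62 between delta and alpha cells and by 0.73 between beta and alpha cells, with exact permutation p of 1, 0.4 and 0.2.

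The ratio sets a gene of low GC content against genes of high GC content, and libraries differed in this property. B2m transcripts had 41.2% GC, with 9.87% of tested genes lower, H2-K1 had 55.8% (82.3% lower) and H2-D1 52.7% (67.1% lower). The GC balance of a library was taken from each gene's log2 deviation from its mean over all libraries, as the median of the 3930 genes lowest in GC minus the median of the 3930 highest. It was 0.78, 0.39 and 0.86 in delta IFNγ, -0.10, -0.08 and 0.85 in delta control, -0.66, -0.36 and -0.40 in beta IFNγ, -0.70, -0.27 and 0.22 in beta control, 0.99, -0.54 and 0.86 in alpha IFNγ, and -0.46, -0.70 and -0.75 in its control. The 5 IFNγ libraries with a balance above 0 had ratios of 1.43 to 4.12, and the 4 below 0 had 0.581 to 1.17. The 2 control libraries above 0 had ratios of 0.331 and 0.336, and the 7 below 0 had 0.0776 to 0.156. Alpha IFNγ 2, the treated alpha library with the lowest B2m and the highest heavy chain levels in CPM, was the one with a balance below 0. With counts adjusted for GC in each library, the ratio was 0.905 to 2.10 in IFNγ libraries and 0.0810 to 0.257 in control libraries, again with no overlap. The adjusted log2 difference was 3.23 in delta, 2.56 in beta and 3.23 in alpha cells, and 3.01 over the 3 cell types (8.03-fold, exact permutation p = 0.00025). The control ratio of delta against alpha cells turned to -0.33 after this adjustment.

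**Figure D4:**
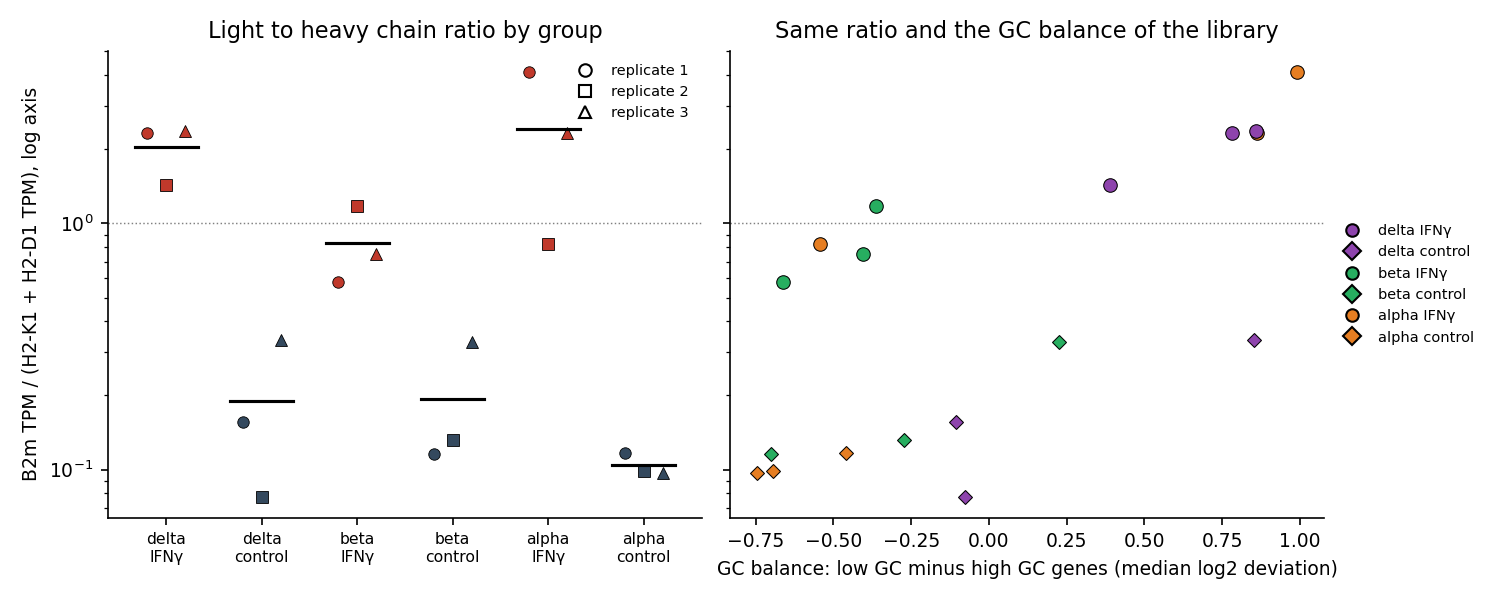
Left, the ratio of B2m to summed H2-K1 and H2-D1 TPM in each library on a log axis, IFNγ left of control for each cell type, with bars for group means and a dotted line at equal levels. Right, the same ratios against the GC balance of each library, where the IFNγ libraries with the higher balance had ratios of 1.43 to 4.12 and those with the lower balance 0.581 to 1.17, above all controls (0.0776 to 0.336).

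The balance between the heavy chains moved little. H2-K1 exceeded H2-D1 in TPM in all 18 libraries, with a ratio of 4.03, 4.24 and 3.50 in delta IFNγ against 3.67, 4.10 and 3.10 in delta control. The ratio was 4.09, 4.60 and 3.91 in beta IFNγ against 3.10, 4.37 and 4.30 in beta control. It was 3.60, 3.40 and 3.70 in alpha IFNγ against 3.51, 3.46 and 3.86 in alpha control. By expected counts, not divided by length, the same ratio was 1.40 to 2.15, and the TPM ratio also carries the effective lengths that RSEM gave these genes, with medians of 809 bases for H2-K1 and 1843 bases for H2-D1. By TPM, treated and control libraries overlapped in every cell type, and the mean log2 difference over the cell types was 0.07 (exact permutation test, p = 0.365). With counts adjusted for GC the delta libraries did not overlap, at 4.20 to 4.34 with IFNγ against 3.56 to 4.14 in controls. The GC-adjusted mean log2 difference over the cell types was 0.16 (exact permutation test, p = 0.139). The share of H2-K1 and H2-D1 in the summed TPM of these and 18 other listed heavy chain genes was 68.3% to 78.4% in all libraries, with and without IFNγ.

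The other genes of the class I pathway were described from lists by function, with medians set beside the all-gene medians of -0.05, 0.00 and -0.01 in delta, beta and alpha cells. No gene of these lists was called lower. Of 8 genes of peptide transport and loading, 4 rose in delta, 5 in beta and 3 in alpha cells, where 1.21%, 1.06% and 0.94% of all genes tested were called higher, with median log2 fold changes of 1.10, 1.35 and 0.80. Tap1, a subunit of the peptide transporter, rose by 4.34 in delta, 4.60 in beta and 2.94 in alpha cells. Tapbp, the tapasin that holds the transporter to the heavy chain, rose by 1.44, 2.09 and 1.11. Calreticulin (Calr), a chaperone of the loading complex, had 0.34, -0.02 and 0.26 and did not pass.

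Of 5 immunoproteasome and activator genes, 4 rose in delta, 5 in beta and 3 in alpha cells, with medians of 2.15, 2.66 and 1.37. Psmb9 rose by 3.21 in delta, 4.12 in beta and 2.91 in alpha cells. Psmb8 rose by 3.02, 3.42 and 2.92, and Psme1, a subunit of the proteasome activator, by 1.58, 2.07 and 1.37. The 3 constitutive subunits that immunoproteasome subunits replace, Psmb5, Psmb6 and Psmb7, were not called in any cell type.

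Of 15 transcription factors of class I genes, 7 passed in delta, 6 in beta and 5 in alpha cells, all higher. Nlrc5, the class I transactivator, rose by 4.72 in delta, 4.18 in beta and 3.55 in alpha cells. Stat2, which acts in the response to interferons, rose by 2.88, 2.37 and 1.88. The list medians were 0.23, 0.30 and 0.41, and Nfya, Nfyb, Nfyc, Rela and Nfkb1, whose products bind the Y box and the NF-kB site, passed in no cell type.

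Of 18 other heavy chain genes, 13 passed the low-count filter, and 7 of these rose in delta, 5 in beta and 6 in alpha cells, with medians of 1.83, 1.79 and 0.66. H2-Q7 rose by 7.09 in delta, 5.67 in beta and 5.63 in alpha cells and H2-Q6 by 7.09, 6.03 and 4.77. These 2 are near copies of each other, so the share of reads between them is uncertain. H2-T23, the mouse Qa-1 heavy chain that presents leader peptides of class I to natural killer cells, rose by 3.63, 4.35 and 2.70. Hfe, a heavy chain homologue of iron regulation, had -1.43, -1.13 and -0.73 and did not pass.

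**Figure D5:**
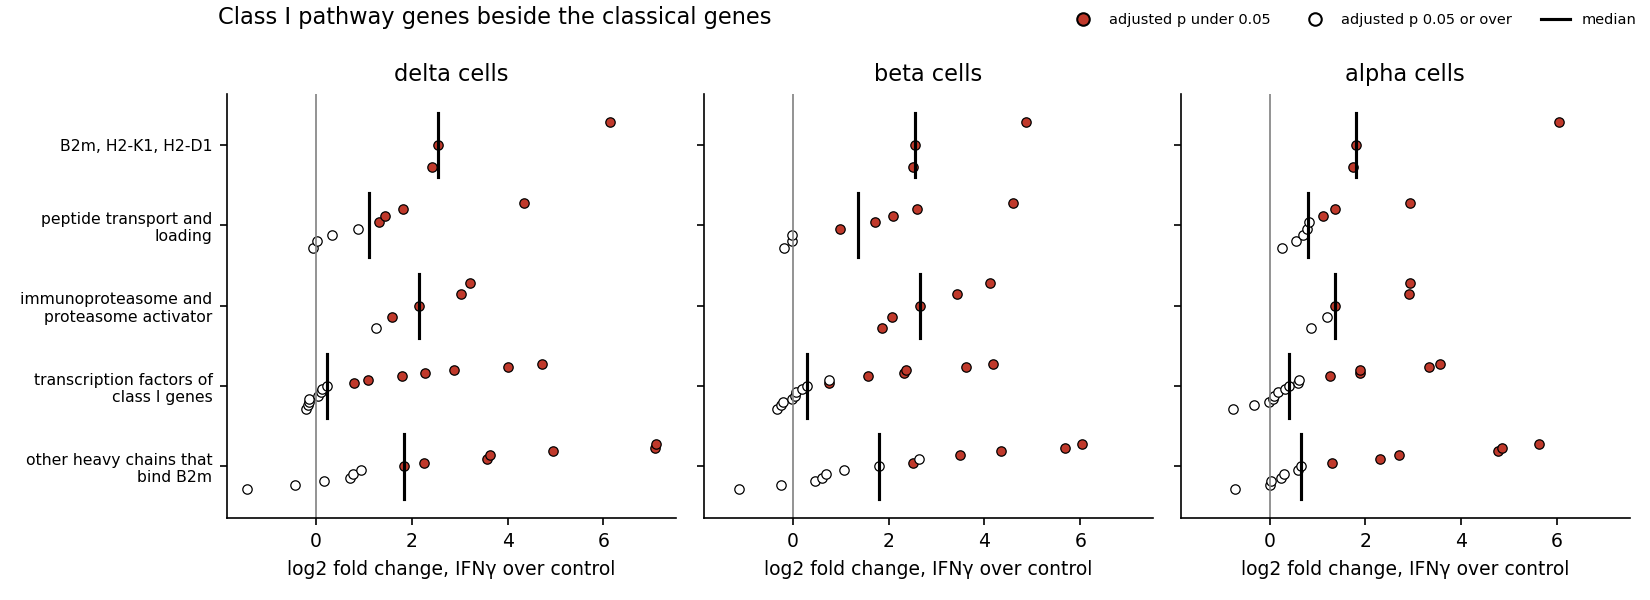
Log2 fold change of IFNγ over control for B2m, H2-K1 and H2-D1 and for every tested gene of the 4 class I lists with called genes, filled where the adjusted p was under 0.05, with a bar at each median. Medians of the immunoproteasome list were 2.15, 2.66 and 1.37 in delta, beta and alpha cells.

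The profile of each gene over the 18 libraries was set beside those of 11265 genes with a mean of at least 5 CPM. The r is given as a description, since the points fell into treated and control libraries that lay apart. H2-K1 and H2-D1 were most like each other (Pearson r = 0.99 of log2 CPM). H2-K1 was next most like Oas1a, Tap1, H2-Q4 and H2-T23, and H2-D1 like Oas1a, Psmb9, H2-T23 and H2-Q4, all at r of 0.98 to 0.99. B2m was most like the guanylate-binding protein genes Gbp6 (0.99), Gbp7 (0.99), Gbp3 (0.99) and Gbp10 (0.98) and Gm4951 (0.99), and less like H2-K1 (0.92) or H2-D1 (0.90). The difference between these r was not tested.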

How the data were processed

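Total RNA of sorted cells was made into random-primed, rRNA-depleted, strand-specific libraries and sequenced as pairs of 75-base reads. The authors ran STAR 2.5.2b on GRCm38 and then RSEM for quantification (RSEM's version, use of strand and use of molecular identifiers: not given in the sources used here). A deposited file gives 1 library's expected counts per gene as the authors' RSEM estimates, with TPM, the deposited level scaled for length and library total, and the deposited effective length. Deposited FPKM values were not used.

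Of 55487 gene identifiers, 55227 (99.5%) were matched to symbols and positions in GENCODE M21 (GRCm38), while the study names a later release. Expected counts were rounded and fitted in edgeR 4.0.16 (R 4.3.3) over all 18 libraries with 1 mean per group, the low-count filter at a minimum count of 10 (17338 genes kept), TMM scaling and the quasi-likelihood F-test, with Benjamini-Hochberg adjustment over all genes tested. The study's own model held a batch term, but the labels give no batch, so none was fitted, and the date in the file names was an alternative. The study states that each sample was biologically independent, and libraries of 1 date may share more than that, as their deviations had a mean correlation of 0.248 over 18 pairs. Ratios were taken within a library from TPM and tested by exact permutation in Python 3.11.15. The GC offsets are a lowess curve of each library's deviation against gene GC content (span 0.3). Other tools were limma 3.58.1, DESeq2 1.42.0, numpy 2.4.6, pandas 2.3.3, Biopython 1.88 and matplotlib 3.10.9. The edgeR fit was tested on simulated data that held no cell type, date or GC differences between libraries. That test therefore does not cover these features of the real libraries.

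The text names the 3 genes, at most 3 genes per list with the largest mean change among those called in all 3 cell types, and the 5 genes most correlated with each of the 3 (log2 CPM, prior count 2). A gene that this rule names and a motif that was searched are not reported here. Calr, Hfe, Nfya, Nfyb, Nfyc, Rela, Nfkb1, the constitutive proteasome subunits, Patl2 and the marker genes were named besides. The genes and lists were chosen with earlier results of these data known. Libraries held 6128845 or more counts, and the lowest value of the 3 genes was 176 expected counts, of B2m in alpha control 1. Counting error was not set against the spread between libraries. It need not be the smaller for B2m in alpha control cells, whose spread was low (25.5 ± 0.716 CPM). Alternatives were other scaling, filter, test, batch, block, GC, denominator and library choices.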

Additional observations from a re-analysis of the deposited data

How the results depend on the processing

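The 9 calls of a higher level with IFNγ held in all 237 refits counted (75 with another method, 162 leaving out 1 library), with an adjusted p of at most 0.0213. The 3 delta refits with date as a fixed term rest on 1 library per treatment and are not counted. The H2-K1 call in IFNγ beta against alpha cells also held in each refit run.

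Genes called higher in alpha cells numbered 163, but 990 with no low-count filter, 389 in DESeq2 and 137 to 1798 leaving out 1 library (1798 without alpha IFNγ 2). In delta cells they numbered 209, but 415 with no filter and 83 with date as a fixed term. With no filter, and with smaller SEs than in the main test, B2m passed in the response difference of beta minus alpha (-1.21) and delta minus beta (1.30). It also passed in control beta against alpha cells (0.75) and in IFNγ delta against beta cells (0.83). B2m in the last contrast also passed with only the libraries compared (0.85), in DESeq2 (0.88) and in limma-voom (0.88). H2-D1 in IFNγ beta against alpha cells passed in limma-voom (0.74). The sum of H2-K1 and H2-D1, tested in place of either gene, passed there too (0.82), and H2-K1 in IFNγ delta against alpha cells passed in DESeq2 (0.61) and with GC offsets (0.63).

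Differences that had not passed changed sign. With date as a fixed term, where any delta contrast rests on 1 library per treatment, these were, for B2m, the response difference of delta minus alpha (-0.72) and delta minus beta (-0.53), control delta against beta (0.20), and, with IFNγ, beta against alpha (0.12), delta against alpha (-0.20) and delta against beta (-0.32). For H2-K1 and H2-D1 the response difference of delta minus beta became 0.63 and 0.55, and H2-D1 in control beta against alpha 0.075. With GC offsets, delta minus beta became 0.22 for H2-K1 and 0.028 for H2-D1, control delta against alpha -0.17 for B2m and 0.17 for H2-K1, IFNγ beta against alpha 0.17 for B2m and IFNγ delta against beta 0.050 for H2-K1. Delta minus beta for H2-K1 was 0.053 with RLE size factors, 0.020 with no filter, 0.036 with only the libraries compared, 0.053 in DESeq2 and 0.0093 in limma-voom. For control beta against alpha cells the sum of H2-K1 and H2-D1 had 0.069, where H2-D1 alone was below 0. The causes were not tested.

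Leaving out 1 library, response differences were 0.58 to 1.05 (H2-K1) and 0.55 to 1.19 (H2-D1) for beta minus alpha, -0.16 to 0.62 (B2m) for delta minus alpha, and -0.19 to 0.13 (H2-K1) and -0.31 to 0.094 (H2-D1) for delta minus beta. Control differences were -0.31 to 0.092 for H2-D1 in beta against alpha, -0.010 to 0.56 for B2m and -0.30 to 0.019 for H2-K1 in delta against alpha, and -0.39 to 0.015 for H2-D1 in delta against beta. IFNγ differences were -0.74 to 0.083 for B2m and 0.45 to 1.08 for H2-D1 in beta against alpha. They were 0.40 to 0.87 for H2-K1 and 0.16 to 0.79 for H2-D1 in delta against alpha, and 0.69 to 1.14 for B2m in delta against beta. In 6 refits an IFNγ contrast passed that had not passed in the main test. The lowest adjusted p (edgeR) was 0.0025 for H2-D1 in beta against alpha and 0.0364 for B2m in delta against beta. In delta against alpha it was 0.0135 for H2-K1 and 0.0342 for H2-D1.

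The light to heavy log2 ratio moved to 3.23 in alpha cells and to -0.33 in control delta against alpha cells with GC adjustment. The H2-K1 to H2-D1 difference in alpha cells moved to 0.093 with expected counts, 0.093 with 1 fixed length and 0.32 with GC adjustment. Other heavy chains added to the denominator, chosen after seeing the data, gave 3.36 over the cell types.

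Same-numbered libraries correlated at -0.27 to 0.41 over 9 pairs, and 5 of 9 exceeded 0.1. In beta cells the libraries numbered 1 and those numbered 2 also shared a date (r of 0.38 and 0.25). Whether the numbers mark pairs in every cell type was not settled, and the main test did not use them. With the replicate block, H2-D1 in IFNγ beta against alpha cells passed (0.71, adjusted p = 0.0426) and no other call changed.

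Groups of 3 limit the precision. Date and treatment cannot be told apart in delta cells, and reads shared among heavy chain genes touch the sum of H2-K1 and H2-D1 as well as their ratio.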
